A study of Mus musculus with 2 samples.

Results

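The 42 genes described here encode proteins that copy DNA before a cell divides or that part the copied chromosomes in mitosis. They were chosen by symbol among the 32285 genes measured in both libraries, and all 42 were found. They fall into 19 replication members (nucleotide supply, the MCM helicase, origin licensing, the replication clamp, replication-coupled chromatin and the E-type cyclins) and 23 mitosis members (the mitotic kinases and cyclins, the anaphase promoting complex, centromere, spindle and mitotic chromosome proteins). The cells were live CD8 T cells, sorted as CD45+ TCRB+ CD8a+ from the 4th mammary fat pad of untreated C57BL/6 mice. One library came from multiparous mice, which had been through several pregnancies (parous), and 1 from virgin mice, each from a pool of at least 5 mice whose age is not given in the sources used here. With 1 library per group no test was made. Every interval is an exact 95% interval that reflects counting noise and no variation among mice or preparations. Intervals of summed levels and of their ratios take each molecule counted as independent. They leave out variation among cells too, though few cells held most of the mitosis transcripts.

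A T cell at rest holds little of this machinery. On the way into the cell cycle, the E-type cyclins with their kinase partner start the transcription of replication genes through E2F factors, and the MCM helicase is loaded at origins and fires in S phase. The mitosis genes follow in G2 and M phase, when a protein complex with the factors B-Myb and FoxM1 acts through the CHR element of their promoters. Memory CD8 T cells divide slowly at rest and quickly after they meet antigen. The mitosis transcripts in particular thus mark the small part of a tissue T cell population that is in cycle at the time of sampling. Some replication transcripts are held by many more cells: unthinned, Pcna UMIs were in 33.9% of parous and 38.4% of virgin cells here.

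After the cell filter, 2993 parous and 2502 virgin cells lay in CD8 T cell clusters, with 13286400 and 19944371 UMIs (molecular tags that count captured RNAs). Median depth was 4108 UMIs per parous and 7002 UMIs per virgin cell, so shares of cells were compared after each cell was thinned at random to 1400 UMIs. The filter left out 1908 parous and 15 virgin barcodes. Between the libraries 18 barcodes were shared, 14 of them kept cells. In thinned cells a Cd3e UMI was present in 75.9% (parous) and 74.0% (virgin), a Cd8a UMI in 49.3% and 47.4%, a Cd8b1 UMI in 61.2% and 75.1%, and a Cd4 UMI in 2 of 2868 and 1 of 2488 cells. Over all 13917 genes with at least 10 UMIs, the median log2 ratio of parous over virgin was -0.15, and 17.4% of genes were lower in parous by 1.5-fold or more and 8.61% were higher by as much.

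Nearly all members were lower in the parous library, and the mitosis members by more than the replication members. In CPM (UMIs per 1e6 UMIs of the library), the replication members summed to 605.2 in parous and 952.2 in virgin cells, 1.57-fold lower in parous (interval 1.53 to 1.62). The mitosis members summed to 303.4 CPM in parous against 762.2 CPM in virgin cells, 2.51-fold lower (2.43 to 2.60). Mitosis UMIs therefore made up 33.4% of all member UMIs in the parous library (32.6 to 34.2%) and 44.5% in the virgin library (43.9 to 45.0%). By gene, 16 of 19 replication members and 22 of 23 mitosis members were at least 1.5-fold lower in parous, against 17.4% of all genes, and none was 1.5-fold higher. The median log2 ratio was -0.73 for replication and -1.55 for mitosis members. With median-of-ratios scaling, which shifts every log2 ratio up by 0.13, the counts were 11 of 19 and 22 of 23. As a mean over cells, in which deep cells weigh no more than shallow ones, 6 of 19 replication members were 1.5-fold lower, and the median log2 ratios were -0.40 for replication and -1.18 for mitosis members.

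**Figure D1:**
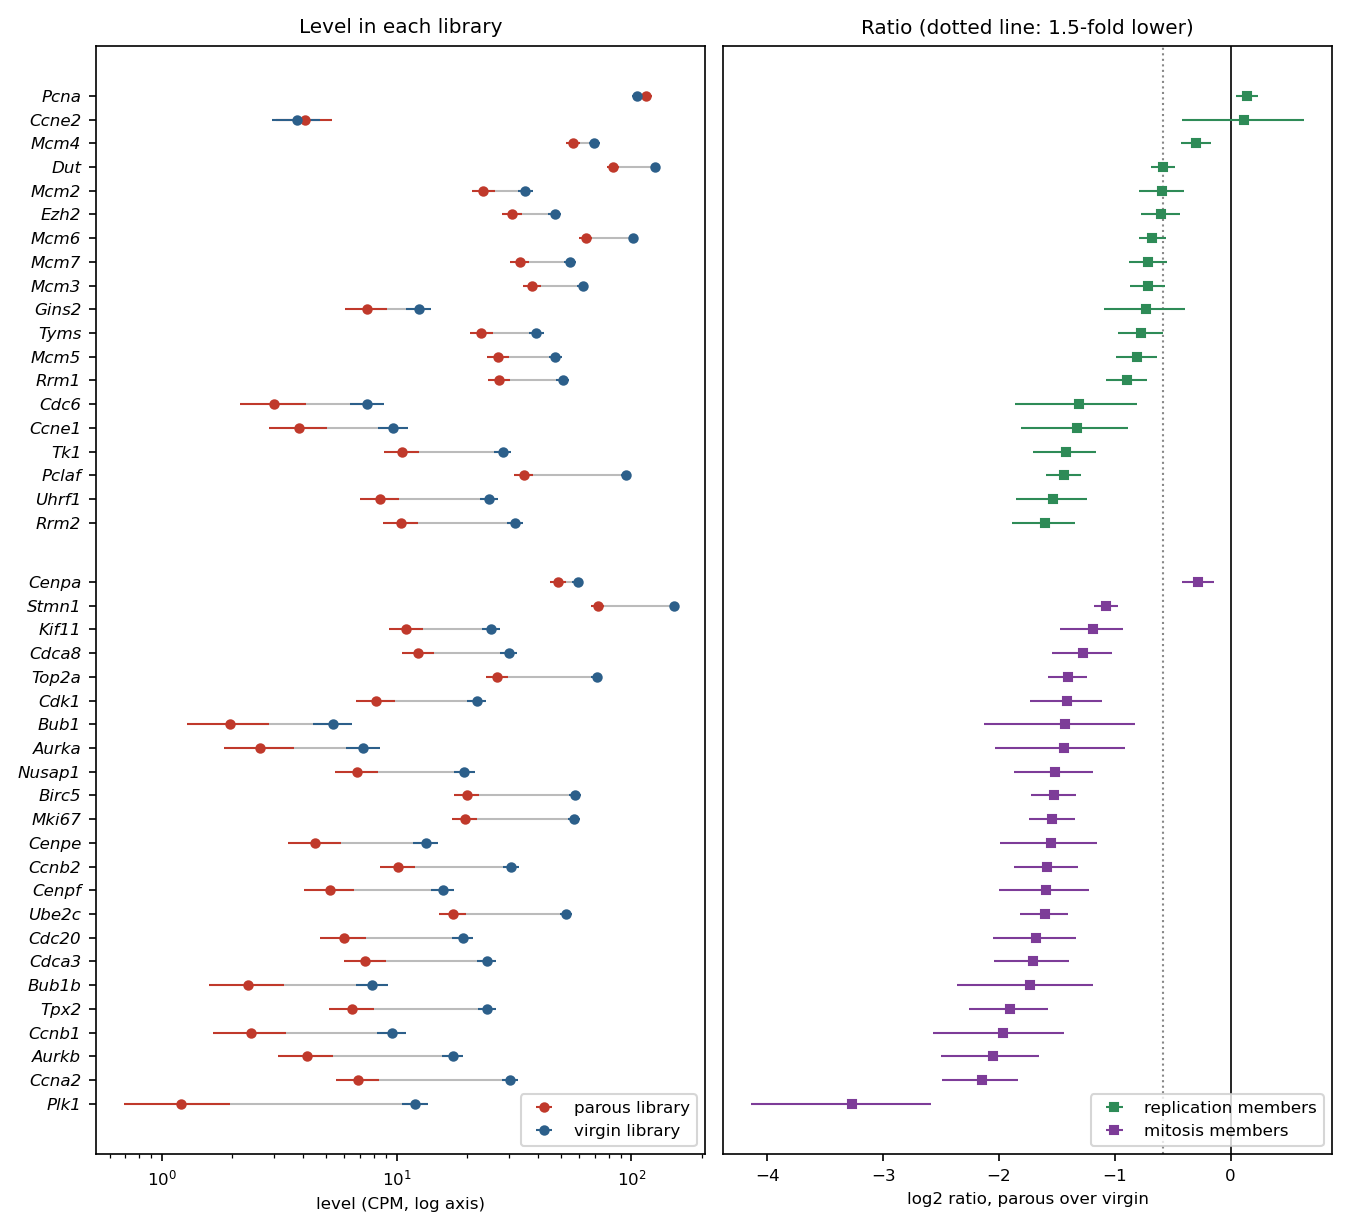
Level of each member in CPM in the parous and virgin libraries (left, log axis) and the log2 ratio of parous over virgin (right), with exact 95% counting intervals. The replication members (upper block) run from -1.61 for Rrm2 to 0.14 for Pcna, and the mitosis members (lower block) from -3.27 for Plk1 to -0.28 for Cenpa.

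Among the genes of nucleotide supply, Rrm2, the S-phase subunit of ribonucleotide reductase (chromosome 12, 24708241 to 24714146 of GRCm38), stood at 10.5 CPM in parous against 31.9 CPM in virgin cells. Pairs of values are given parous first from here on. Rrm2 was 3.05-fold lower in parous, the smallest ratio of a replication member. Its partner subunit Rrm1, which is made over more of the cycle, was 1.87-fold lower (27.3 and 51.0 CPM). Tk1, the salvage thymidine kinase, stood at 10.5 and 28.4 CPM, and Tyms, thymidylate synthase, at 23.0 and 39.4 CPM. Dut, which removes dUTP before it can enter DNA, was lower by a factor close to the 1.5-fold limit (83.5 and 125.5 CPM, log2 ratio -0.59).

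The 6 MCM genes, whose products form the ring-shaped replicative helicase, kept close together, with log2 ratios from -0.81 for Mcm5 to -0.30 for Mcm4. Mcm3 stood at 37.8 and 62.1 CPM, Mcm5 at 27.1 and 47.5 CPM and Mcm7 at 33.5 and 54.9 CPM. Mcm2 stood at 23.4 CPM in parous against 35.3 CPM in virgin cells (1.51-fold lower, 1.32 to 1.73), and Mcm6 at 63.7 and 101.9 CPM. Mcm4, at 56.4 and 69.4 CPM, was 1 of 3 replication members that did not reach 1.5-fold. Cdc6, which loads the MCM ring onto origins, was 2.50-fold lower (3.01 and 7.52 CPM), and Gins2, a subunit of the complex that activates the ring, 1.67-fold lower (7.45 and 12.4 CPM).

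The replication clamp split. Pcna, the sliding clamp itself (chromosome 2, 132249162 to 132253314), stood at 115.8 CPM in parous against 105.2 CPM in virgin cells, 1.10-fold higher in parous (log2 ratio 0.14, interval 0.04 to 0.23). Pclaf, a small protein that binds the clamp in S phase, went the other way, at 34.8 CPM in parous against 94.5 CPM in virgin cells, 2.72-fold lower. The 2 genes also differed in how many cells held them: Pcna UMIs came from 1015 parous and 960 virgin cells, and Pclaf UMIs from 74 and 153. Of the chromatin members, Uhrf1, which guides maintenance methylation behind the fork, was 2.91-fold lower (8.5 and 24.8 CPM), and Ezh2, the histone H3 lysine methyltransferase of Polycomb, 1.52-fold lower (31.01 and 47.1 CPM).

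The E-type cyclins also split. Ccne1 stood at 3.84 CPM (51 UMIs) in parous and 9.68 CPM (193 UMIs) in virgin cells, 2.52-fold lower (1.84 to 3.50). Ccne2 stood at 4.06 CPM (54 UMIs) and 3.76 CPM (75 UMIs), a log2 ratio of 0.12 whose interval of -0.42 to 0.64 includes 0. Its log2 ratio was 0.64 as a mean over cells and -0.17 without clusters 5 and 6, the mostly parous ones described further on.

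The mitosis members were lower by more. Plk1, the kinase that drives centrosome maturation and entry into mitosis (chromosome 7, 122159439 to 122169873), had 16 UMIs in 16 parous cells and 239 UMIs in 84 virgin cells. Its level of 1.204 CPM in parous against 12.0 CPM in virgin cells was 9.95-fold lower in parous (6.00 to 17.7), the smallest ratio of all 42 members. Aurkb, the chromosomal passenger kinase, stood at 4.14 and 17.3 CPM, 4.19-fold lower, and Aurka, the spindle pole kinase, at 2.63 and 7.22 CPM, 2.74-fold lower. The checkpoint kinase genes Bub1 and Bub1b were 2.74-fold and 3.37-fold lower.

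Ccna2, the S and G2 phase cyclin (chromosome 3, 36564865 to 36572150), had 91 UMIs (6.85 CPM) in parous and 608 UMIs (30.5 CPM) in virgin cells, 4.45-fold lower (3.57 to 5.61). Ccnb1, the main mitotic cyclin, stood at 2.41 and 9.53 CPM (32 and 190 UMIs), 3.96-fold lower. Cdk1, the kinase that both cyclins activate, stood at 8.204 and 21.9 CPM, 2.67-fold lower, and Ccnb2 at 10.2 and 30.6 CPM. Each of these 4 genes was lower beyond the counting intervals.

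Of the anaphase promoting complex, Cdc20, its activator, was 3.22-fold lower (5.95 and 19.2 CPM), and Ube2c, its ubiquitin-conjugating enzyme, 3.05-fold lower (17.3 and 52.8 CPM). Cdca3, grouped here with them though not a part of the complex, was 3.28-fold lower. The passenger genes Birc5 and Cdca8 stood at 19.9 and 57.5 CPM and at 12.3 and 29.98 CPM. Tpx2, which nucleates spindle microtubules, was 3.76-fold lower (6.47 and 24.3 CPM), while Kif11, the kinesin that pushes spindle poles apart, was 2.29-fold lower, and Nusap1 2.87-fold lower.

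Mki67, which encodes a protein that coats mitotic chromosomes and is the usual marker of cycling cells, stood at 19.6 CPM in parous against 57.01 CPM in virgin cells, 2.91-fold lower (2.54 to 3.35). Top2a, the topoisomerase that untangles sister chromatids, stood at 26.8 and 71.0 CPM, 2.65-fold lower. Stmn1, a regulator of microtubule growth that resting cells can also hold, was 2.11-fold lower (71.7 and 151.1 CPM). The kinetochore genes Cenpe and Cenpf were 2.95-fold and 3.03-fold lower. Cenpa, the centromeric histone H3 variant, was the 1 mitosis member that did not reach 1.5-fold, at 48.5 CPM in parous against 59.0 CPM in virgin cells (log2 ratio -0.28), and its log2 ratio as a mean over cells was 0.06.

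Genes of the same processes outside the 42 showed the same order of the subgroups. Of 60 other mitosis genes, 50 were at least 1.5-fold lower in parous (against 17.4% of all genes). None was 1.5-fold higher (against 8.61%), and the median log2 ratio was -1.17. The same shares of all genes apply to each list that follows. The lowest were Nek2, a centrosome kinase (0.53 CPM in parous against 5.52 CPM in virgin cells), Hmmr (2.18 and 11.7 CPM) and Kif2c (0.68 and 3.71 CPM), and the highest was Cks2 (110.9 and 94.9 CPM). Of 44 other replication genes, 21 were 1.5-fold lower and none was 1.5-fold higher (median -0.58), with Mcm10 and Cdc45 among the lowest and Orc6 highest (log2 ratio 0.35). The cycle transcription factors had 9 of 21 lower and 1 higher. E2f8 stood at 1.58 and 7.72 CPM and Foxm1, the factor that drives the mitosis genes, at 1.28 and 5.42 CPM. Of 9 measured G1 cyclins and kinases 3 were lower. Cdk2, the partner of the E-type cyclins, stood at 6.92 and 13.7 CPM, while Ccnd3, a cyclin of early G1, stood at 225.3 and 290.2 CPM. Of 20 inhibitors and quiescence genes 2 were lower (Cdkn2a and Klf2, against 17.4% of all genes) and 3 higher (against 8.61%). Counts this small do not set the list apart from all genes. Cdkn1a, the p21 inhibitor of cyclin-dependent kinases, stood at 72.5 CPM in parous against 24.3 CPM in virgin cells, 2.98-fold higher in parous (2.67 to 3.33).

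The promoters of the members are shown because the subgroups differ in the motifs that cycle factors are known to bind. RefSeq promoters (GRCm38.p6, 250 bases before to 50 bases after the start) were found for 35 of 42 members. The cell cycle homology region (CHR, TTTGAA or TTCGAA on either strand) was in 15 of 19 mitosis and 2 of 16 replication promoters, against 19.2% of all 32851 promoters. The E2F letters searched (TTTCGCGC, TTTGGCGC or TTTCCCGC) were in 1 of 19 mitosis and 8 of 16 replication promoters, against 1.84% of all. CCAAT, the NF-Y motif, was in 17 of 19 and 11 of 16, against 37.4%. Below are the promoters of the replication and mitosis members with most UMIs among those with a RefSeq promoter (Pcna and Dut, Cenpa and Top2a), and, chosen after the values were seen, Mcm6 as the replication member with most UMIs and an E2F match and Plk1 as the smallest ratio. Capitals mark CHR, E2F and CCAAT matches on either strand (ATTGG is CCAAT and TTCAAA is CHR read on the other strand). Pcna has 1 CCAAT match, and the stretch printed for Dut has none of the 3 motifs. That stretch lies wholly downstream of the GENCODE start of Dut (chromosome 2, 125247190), so the bases before that start were not searched. Mcm6 has 3 E2F matches, of which 2 overlap, and 2 CCAAT matches. Cenpa has 1 CHR and 2 CCAAT matches, Top2a 4 and 6, and Plk1 1 of each. A match is a description of letters, not of binding.
Pcna (chr2:132253131-132253430, - strand): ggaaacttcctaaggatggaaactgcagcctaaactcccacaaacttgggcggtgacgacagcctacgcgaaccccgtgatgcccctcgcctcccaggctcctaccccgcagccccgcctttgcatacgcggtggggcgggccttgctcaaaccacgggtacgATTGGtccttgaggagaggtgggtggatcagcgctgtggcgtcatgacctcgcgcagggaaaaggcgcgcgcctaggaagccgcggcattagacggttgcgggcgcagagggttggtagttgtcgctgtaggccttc
Dut (chr2:125247265-125247564, + strand): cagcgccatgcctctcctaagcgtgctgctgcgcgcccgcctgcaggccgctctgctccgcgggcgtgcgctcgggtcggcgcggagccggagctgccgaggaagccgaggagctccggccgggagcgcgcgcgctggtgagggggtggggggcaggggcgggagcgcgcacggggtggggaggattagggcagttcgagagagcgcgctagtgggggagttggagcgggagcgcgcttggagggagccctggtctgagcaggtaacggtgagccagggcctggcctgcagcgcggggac
Mcm6 (chr1:128359656-128359955, - strand): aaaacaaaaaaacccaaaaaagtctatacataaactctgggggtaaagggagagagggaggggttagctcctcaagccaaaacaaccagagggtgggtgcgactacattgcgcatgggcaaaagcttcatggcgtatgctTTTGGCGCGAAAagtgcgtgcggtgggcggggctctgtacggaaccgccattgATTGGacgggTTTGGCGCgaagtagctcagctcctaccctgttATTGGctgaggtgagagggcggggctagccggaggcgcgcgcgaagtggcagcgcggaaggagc
Cenpa (chr5:30666636-30666935, + strand): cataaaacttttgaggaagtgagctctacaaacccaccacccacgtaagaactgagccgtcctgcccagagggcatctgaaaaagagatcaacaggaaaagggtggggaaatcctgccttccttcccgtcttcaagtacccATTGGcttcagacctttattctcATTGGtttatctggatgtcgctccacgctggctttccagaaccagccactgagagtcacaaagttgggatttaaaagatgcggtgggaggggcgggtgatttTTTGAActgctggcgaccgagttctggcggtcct
Top2a (chr11:99024140-99024439, - strand): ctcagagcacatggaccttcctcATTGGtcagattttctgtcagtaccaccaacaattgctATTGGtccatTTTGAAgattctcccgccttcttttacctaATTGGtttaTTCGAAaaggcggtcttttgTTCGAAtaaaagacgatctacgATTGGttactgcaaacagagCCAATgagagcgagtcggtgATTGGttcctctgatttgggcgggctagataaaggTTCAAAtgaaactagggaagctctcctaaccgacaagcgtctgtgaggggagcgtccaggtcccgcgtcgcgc
Plk1 (chr7:122159185-122159484, + strand): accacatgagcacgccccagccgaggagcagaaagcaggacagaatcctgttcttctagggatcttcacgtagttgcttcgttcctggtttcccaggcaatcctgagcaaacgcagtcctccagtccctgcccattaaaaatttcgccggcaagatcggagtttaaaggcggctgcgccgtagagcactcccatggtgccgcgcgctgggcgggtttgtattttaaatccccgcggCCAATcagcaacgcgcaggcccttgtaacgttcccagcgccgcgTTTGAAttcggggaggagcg

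Members were next counted cell by cell. In bulk sums, fewer cells in cycle and less of these transcripts per cycling cell cannot be told apart. A minimum count per cell does not fully separate them either. At 1400 UMIs per cell, at least 2 mitosis UMIs were found in 93 of 2868 parous cells (3.24%, 2.63 to 3.96%) and 152 of 2488 virgin cells (6.11%, 5.2 to 7.12%), a 1.88-fold lower share in parous (interval 1.45 to 2.47). Averaged over all possible draws of the thinning the shares were 3.26% and 5.77%. Without thinning they were 9.76% and 16.6%. The gap widened with the count asked for. At least 1 mitosis UMI was found in 11.8% and 14.1% of cells, at least 5 in 1.36% and 3.18%, and at least 10 in 0.66% and 1.77% (2.67-fold lower). In the cluster of other cells 1 of 26 parous and 2 of 9 virgin cells had at least 2 mitosis UMIs without thinning.

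For the replication members the shares lay closer. At least 2 replication UMIs marked 410 parous cells (14.3%) and 413 virgin cells (16.6%), 1.16-fold lower in parous (1.01 to 1.33), and at least 5 in 2.13% and 3.98%, 1.87-fold lower. Cells with at least 2 replication but under 2 mitosis UMIs made up 12.4% of the parous and 12.5% of the virgin library. Cells with at least 2 of both made up 1.88% (1.42 to 2.45%) and 4.14% (3.39 to 5.00%). Of the cells with at least 2 replication UMIs, 13.2% in parous and 24.9% in virgin cells also had at least 2 mitosis UMIs. The gap between the libraries thus lay mainly in cells that held transcripts of both subgroups.

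**Figure D2:**
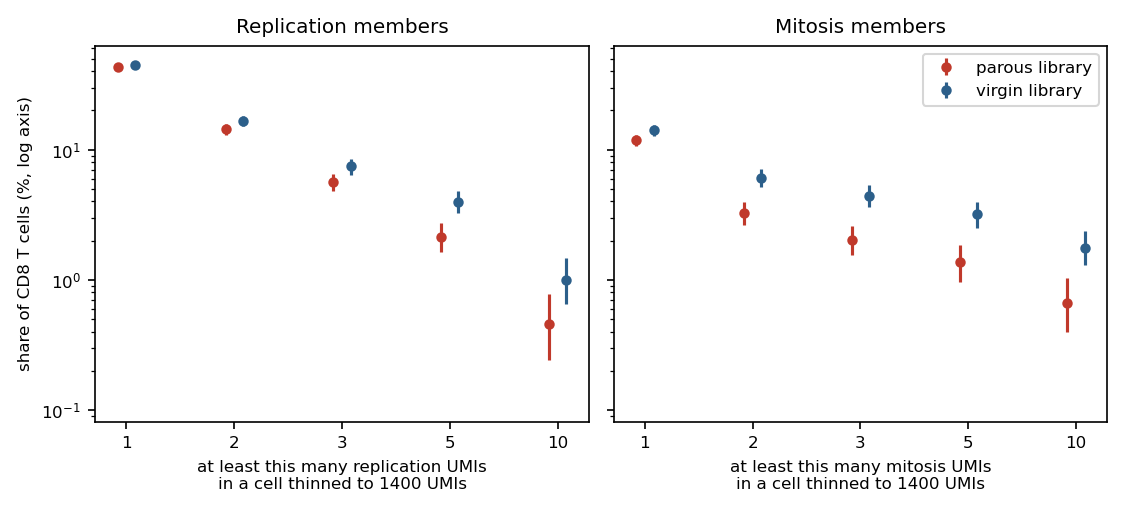
Share of CD8 T cells (log axis) with at least 1, 2, 3, 5 or 10 UMIs of the replication (left) or mitosis (right) members after thinning to 1400 UMIs, with Clopper-Pearson 95% intervals. At 1 UMI the replication shares are 43.0% and 44.7%, and at 10 UMIs the mitosis shares are 0.66% in parous and 1.77% in virgin cells.

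The mitosis UMIs were held by few cells. The 5% of cells with most of them held 79.6% of all mitosis UMIs in parous and 89.5% in virgin cells, while the 5% of cells with most replication UMIs held 45.8% and 61.1% of those. Cells with at least 2 mitosis UMIs were also the deep ones, with a median of 7193 UMIs in parous and 15857.5 UMIs in virgin cells, against 4152.5 and 6863 UMIs in cells with none. No doublet call fell among them, but with 2 parous and 11 virgin calls in all this cannot exclude doublets. In cells with at least 2 mitosis UMIs the summed CD8 T identity markers stood at 5423 and 4922 CPM, against 5236 and 5113 CPM in cells with none. Of the other lists, the 11 myeloid markers summed to 181.8 and 164.0 CPM against 137.3 and 109.4 CPM, with 1 of 11 at 0 in each library, and the part of such RNA in the shares was not tested. In each library, naive or central memory markers were lower in these cells (1383 against 2340 CPM in parous, 989.1 against 4550 CPM in virgin). In parous cells other lists were lower too, among them tissue-resident memory (1632 against 2615), circulating effector (2005 against 2817) and NK or innate-like (438.2 against 1045 CPM). In virgin cells those lists differed less (1635 against 1603, 2586 against 2700 and 334.4 against 313.1 CPM). Gzmk or exhausted markers were higher in both libraries (1562 against 1438 and 1283 against 957.8 CPM).

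T cell states were taken from clusters built without the members, other cycle genes, histones and genes that follow the members across cells. Clusters 0 (naive or central memory-like), 2 and 4 (both tissue-resident memory-like) and 3 (Ly49-positive) held at least 20 thinned cells of each library. So did clusters 1 (Gzmk or exhausted-like, led by Ccr2, Eomes and Gzmk), 8 (circulating effector-like), 9 (interferon-responding-like) and the unnamed, RNA-poor cluster 7. In cluster 3, 4 of the 10 NK or innate-like markers were up (Klra7, Klrb1c, Klre1 and Klra9), without Tyrobp or Fcer1g. Cluster 4 was led by Mmp9, Cass4, Ccr4 and Ccr8, and also by Cd40lg, and held 151 parous and 188 virgin cells. Cluster 2, led by Car2, Cdh1 and Itgae, held 521 parous and 67 virgin cells. Of the 15 tissue-resident memory markers, 7 were up in cluster 4, without Itgae, Cd69 or Cdh1. In cluster 2 also 7 were up, without Cxcr6, Zfp683 or Cd69. Clusters 5 and 6 were almost wholly parous (319 and 317 cells, against 11 and 1). The unnamed cluster 6 had Gzmc, Fcer1g and Tyrobp among its leading genes, and a Cd8b1 UMI in 22.3% of its cells before thinning.

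The difference between the libraries was far from even over states and was largest in cluster 4. There at least 2 mitosis UMIs were found in 3 of 150 parous cells (2.0%, 0.41 to 5.73%) and 41 of 188 virgin cells (21.8%, 16.1 to 28.4%), a 10.9-fold lower share in parous (3.48 to 55.0), and at least 2 replication UMIs in 16.0% and 33.5%. Averaged over all draws the mitosis shares were 2.36% and 19.2%. Mki67 had 5 UMIs in 4 parous cells and 395 UMIs in 50 virgin cells of this cluster, and Top2a 6 and 443 UMIs. Ccna2 had 0 and 197 UMIs. All 23 mitosis and all 19 replication members were at least 1.5-fold lower, against 24.9% of all genes, with median log2 ratios of -3.21 and -2.13. The 5 cells with most mitosis UMIs held 72.3% of them in parous and 33.4% in virgin cells of this cluster. As the members were summed over the same cells, their count is not separate support for the difference. Cluster 4 held 27.0% of the virgin and 3.23% of the parous cells with at least 2 mitosis UMIs, while it made up 7.56% and 5.23% of the thinned cells.

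This cluster is sensitive to how the states are drawn. When genes that follow the members were kept in the clustering, its nearest match held 8 of its 41 virgin cells with at least 2 mitosis UMIs, and the shares there were 2.0% and 5.88%. At resolutions of 0.5 and 1.2 the matches held 36 and 37 of the 41, with shares of 2.21% and 23.8% and of 2.80% and 22.0%. With stricter cell limits the match held 40 of the 41. Its shares were 5.26% (8 of 152 parous cells) and 15.5% (33 of 213 virgin cells) when the kept cells were thinned anew, 2.94-fold lower in parous, and 3.29% and 19.7% with the thinning used elsewhere. Averaged over all draws they were 3.66% and 18.1%, 4.94-fold lower, and with correlated genes kept they were 1.78% and 2.55%, 1.43-fold lower.

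In the other states the gap was smaller or absent. In cluster 1, 4.57% of parous and 8.44% of virgin cells had at least 2 mitosis UMIs, and 23 of 23 mitosis and 15 of 19 replication members were 1.5-fold lower, against 19% of all genes. In cluster 9 the shares were 1.85% (1 of 54 cells) and 13.7% (13 of 95), with 22 of 22 measured mitosis members lower against 29.3% of all genes. A member high in 1 library more readily reaches the 10 UMIs needed to be measured, here and in cluster 7. Cluster 2 had 4.62% and 7.46% (5 of 67 virgin cells), with 22 of 23 mitosis members lower against 23.7%. Of its virgin mitosis UMIs 96.2% came from 5 cells. In cluster 7 the shares were 7.37% and 9.57% (13 of 16 measured mitosis members lower, against 18.2%), and in cluster 8 they were 6.58% and 10.2% (11 of 23 lower, against 23.3%). In clusters 2, 7 and 8 the intervals of the shares overlapped widely.

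In clusters 0 and 3 the summed mitosis members were higher in parous. In naive or central memory-like cluster 0, 5 of 494 parous (1.01%) and 6 of 971 virgin cells (0.62%) had at least 2 mitosis UMIs, and the mitosis members summed to 1.44-fold more in parous (1.21 to 1.71). Averaged over all draws these shares were 1.32% and 0.53%, but at least 3 mitosis UMIs were in 0.088% and 0.118% of cells. The higher sum was thus spread over cells with few mitosis UMIs. The 5 cells with most of them held 10.9% in parous and 21.4% in virgin cells. Of 10 measured mitosis members 4 were lower (against 18.7%) and 2 higher (against 5.69%), with a median log2 ratio of 0.25. More members were thus past 1.5-fold lower than past 1.5-fold higher, though the sum was higher. In Ly49-positive cluster 3 the shares were 2.30% (7 of 305) and 1.02% (2 of 196). The mitosis members there summed to 1.82-fold more in parous (1.53 to 2.17), and 8 of 12 measured members were at least 1.5-fold higher (against 6.61% of all genes) and none 1.5-fold lower (against 18.9%). Mki67 stood at 17.5 CPM in parous against 3.89 CPM in virgin cells. The 5 cells with most of these mitosis UMIs held 61.9% of them in parous and 57.1% in virgin cells. Only 12 of the 23 mitosis members had the 10 UMIs needed to be measured, which a member high in 1 library reaches more readily. As few cells held most of these UMIs, the count of members is not separate support for the sum. Cluster 6, with 1 virgin cell, had 0 of 311 parous cells with at least 2 mitosis UMIs, which allows a share of up to 0.965% (3 cells, and 1.18% by the exact interval), and cluster 5 had 5.05%.

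**Figure D3:**
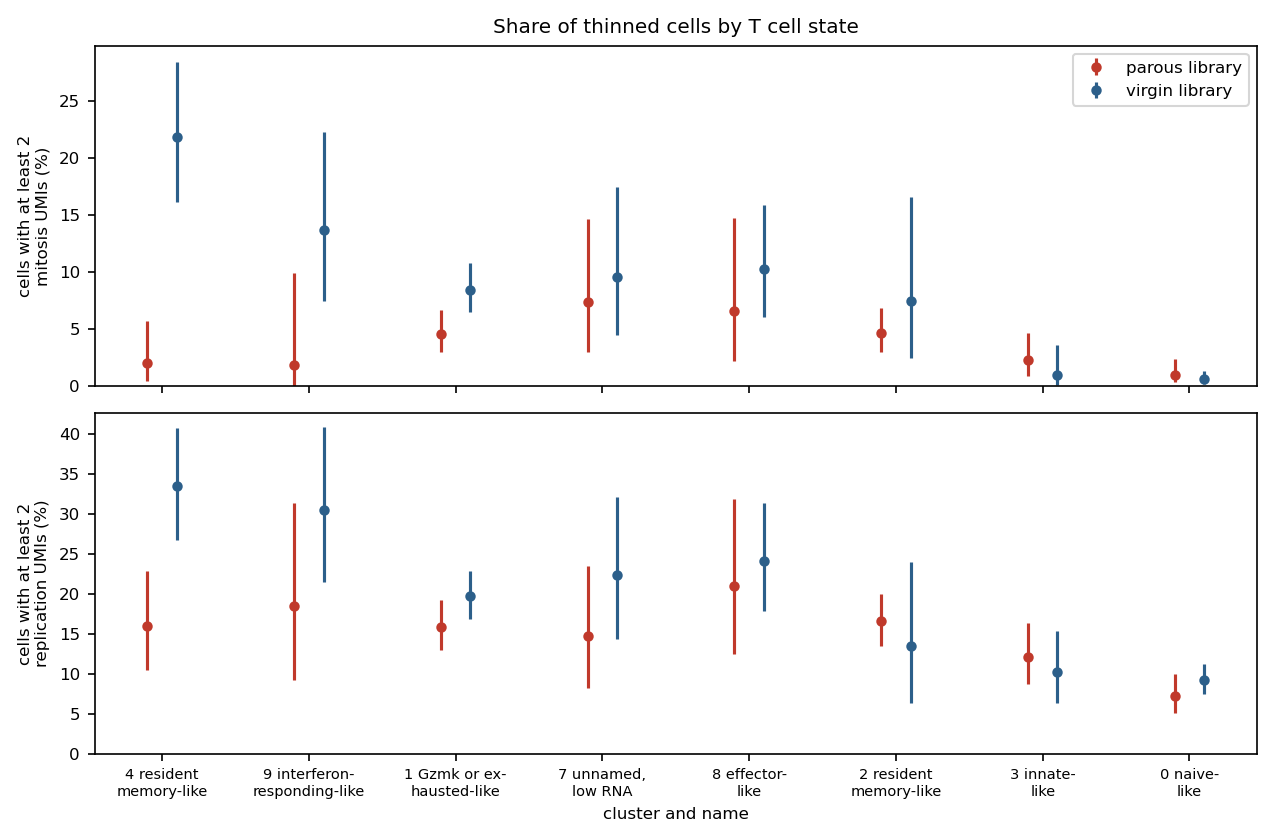
Share of thinned cells with at least 2 mitosis (top) or replication (bottom) UMIs in the 8 clusters with at least 20 cells of each library, with Clopper-Pearson 95% intervals. The widest gap is in cluster 4 (2.0% of parous and 21.8% of virgin cells for mitosis), and the mitosis shares in clusters 0 and 3 are at or below 2.30% in both libraries. Cluster 3, labelled innate-like in the figure, is the Ly49-positive cluster.

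Weighting the states to equal sizes left a difference. Over the 8 shared clusters, the share with at least 2 mitosis UMIs was 3.44% in parous against 6.14% in virgin cells, 1.79-fold lower. With parous shares weighted by virgin state sizes the parous value was 2.94%, 2.09-fold lower than virgin, and with virgin shares at parous sizes it was 6.61%, 1.92-fold above parous. Without cluster 4 the 3 folds were 1.37, 1.61 and 1.56. For at least 2 replication UMIs they were 1.197, 1.31 and 1.16 over all 8 clusters. With cycle-correlated genes kept in the clustering, which gathers cycling cells into clusters of their own, the fold at virgin sizes was 1.09 for mitosis.

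The receptor gene Trbv31 marked part of the virgin cycling cells. Among cells with an assigned Trbv gene it was found in 39 of 133 virgin cells with at least 2 mitosis UMIs (29.3%, against 6.34% of virgin cells with none) and in 6 of 79 parous ones (7.59%, against 5.33%), and in cluster 4 it was found in 22 of 35 such virgin cells against 26 of 116 with none.

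To compare levels within cycling cells, each member was summed over cells with at least 3 UMIs (of 1400) of the other mitosis members. This class, a range of a score and not a cell type, held 58 parous and 110 virgin cells when no member was left out, and was chosen after the values were seen. Because it asks for the same minimum of mitosis UMIs in both libraries, the selection itself draws their mitosis levels together. It cannot tell fewer cycling cells from less of these transcripts per cycling cell. Inside it the libraries were much closer. The median log2 ratio was -0.20 for mitosis members, with 5 of 23 at least 1.5-fold lower, a share near the 21.6% of all genes, and 0.04 for replication members, with 1 of 19 lower and 1 higher. Mki67 stood at 418.0 and 478.4 CPM and Pclaf at 718.0 and 745.2 CPM. Stmn1 was higher in parous (1477 and 1191 CPM).

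The 5 mitosis members at least 1.5-fold lower inside the class were Plk1, Cdc20, Aurka, Ccna2 and Aurkb. Plk1 had 11 UMIs in the 58 parous cells and 214 in the 110 virgin cells, 23.3 and 102.0 CPM, 4.38-fold lower (log2 ratio -2.07, interval -3.15 to -1.26). Cdc20 stood at 84.7 and 148.7 CPM (log2 ratio -0.80, -1.32 to -0.33) and Ccna2 at 177.9 and 279.2 CPM (-0.64, -0.998 to -0.32). The interval of Aurka (-1.73 to 0.15) includes 0. Of 60 other mitosis genes 15 were 1.5-fold lower inside the class, also near the 21.6% of all genes (median -0.29), with Nek2 lowest at 14.8 and 47.6 CPM, and of 44 other replication genes 1 was lower (median 0.00). With the looser class of at least 2 UMIs of the other 41 members, which takes in many cells with replication transcripts alone, 22 of 23 mitosis and 13 of 19 replication members were lower inside, against 19% of all genes (medians -1.14 and -0.61), and outside, in cells with none, 4 of 12 and 2 of 17 measured members, against 16.1%.

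**Figure D4:**
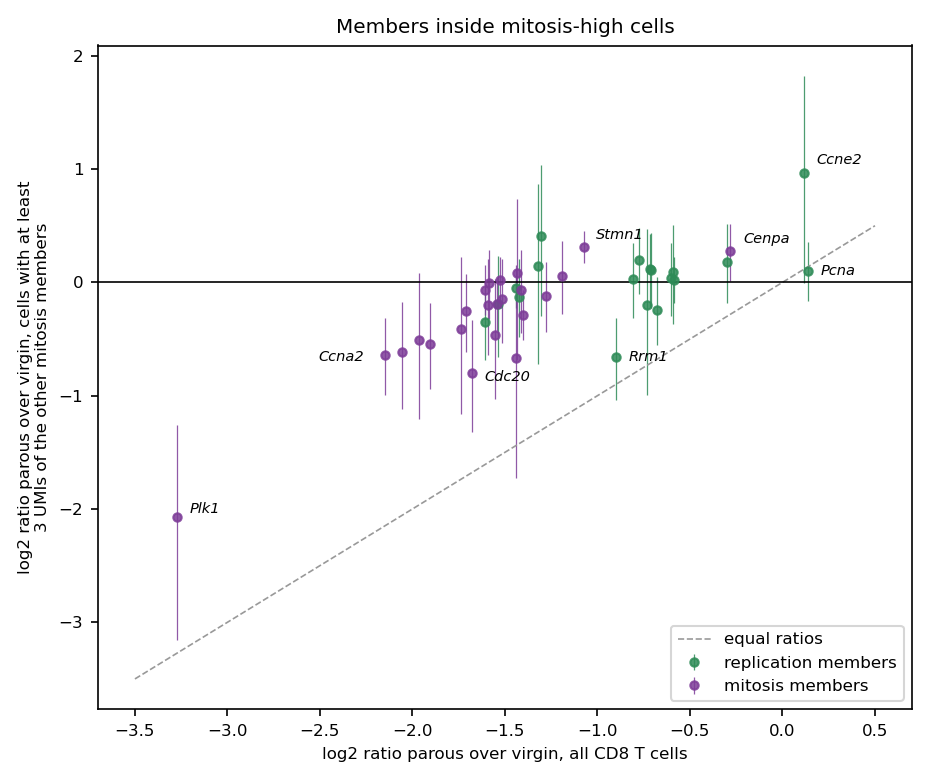
For each member, the log2 ratio of parous over virgin in all CD8 T cells (horizontal) and in cells with at least 3 UMIs of the other mitosis members (vertical, with exact 95% counting intervals). Most members lie near 0 on the vertical axis, and Plk1 is lowest on both axes at -3.27 and -2.07.

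Outside the class, in cells with 0 UMIs of the other mitosis members, the median log2 ratios were -0.14 for the 19 replication members and -0.29 for the 20 measured mitosis members, with 4 lower in each subgroup against 16.2% of all genes. Uhrf1, Ccne1, Cdc6 and Tk1 were the replication members that stayed lower there. Ccne1 stood at 2.66 CPM in parous against 5.57 CPM in virgin cells (log2 ratio -1.05) and Uhrf1 at 3.81 and 7.17 CPM (-0.90). Cdc6 rested on 9 and 29 UMIs.

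Pcna and Cenpa were higher in parous cells outside the class. Pcna stood at 104.6 CPM (1182 UMIs) in 2530 parous cells and 74.1 CPM (1158 UMIs) in 2138 virgin cells, a log2 ratio of 0.50 (0.38 to 0.62), and Cenpa at 35.8 and 24.5 CPM (0.54, 0.34 to 0.75). Inside the class Pcna stood at 330.4 and 308.3 CPM, a log2 ratio of 0.10 whose interval of -0.16 to 0.35 includes 0. By state, Pcna in cells without mitosis UMIs was higher in parous in 7 of 8 clusters, and in 5 of them, clusters 0, 1, 2, 3 and 8, the interval of the fold lay above 1. In cluster 0 it stood at 99.96 CPM in parous against 65.0 CPM in virgin cells (1.54-fold, 1.30 to 1.81). In cluster 4 it stood at 111.3 and 121.5 CPM, and the interval of the fold, 0.65 to 1.27, includes 1.

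Cdkn1a, whose protein p21 binds the clamp as well as the kinases, was higher in the same cells. In cells without mitosis UMIs it stood at 66.0 CPM in parous against 15.6 CPM in virgin cells, and by state it was 3.53-fold higher in cluster 0, 3.75-fold in cluster 1 and 4.49-fold in cluster 2. In cluster 4 it stood at 107.2 and 84.0 CPM, with an interval of the fold of 0.88 to 1.83. Inside the mitosis class it stood at 228.7 and 76.7 CPM. A relation between the 2 genes was not tested.

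**Figure D5:**
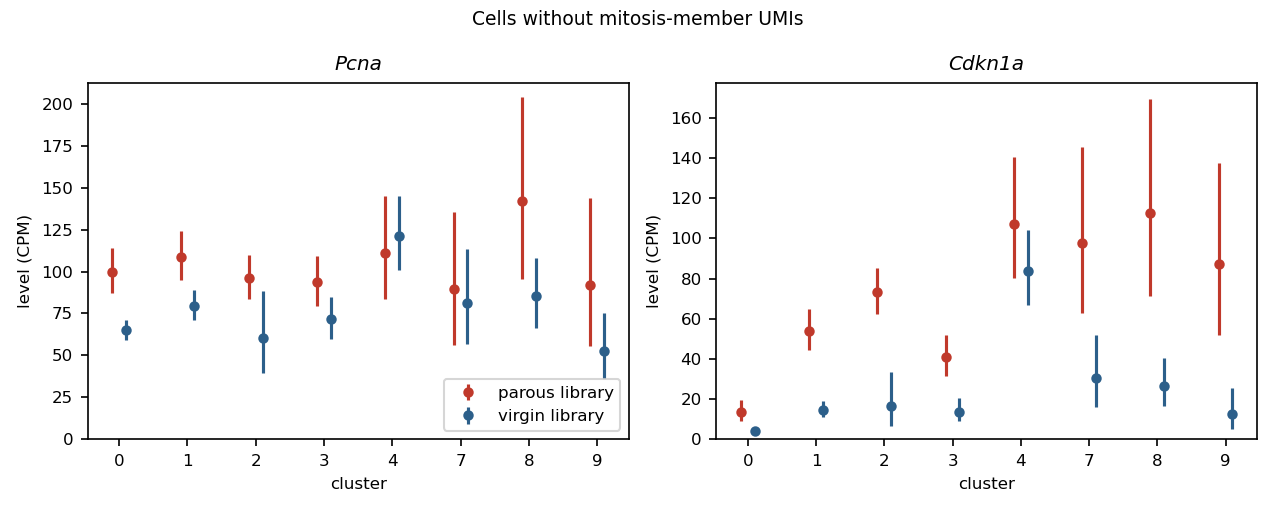
Levels (CPM, exact Poisson 95% intervals) of Pcna (left) and Cdkn1a (right) in cells without mitosis-member UMIs, by cluster and library. In cluster 0 Pcna is at 99.96 CPM in parous against 65.0 CPM in virgin cells, and in cluster 4 the intervals of the libraries overlap for both genes.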

How the data were processed

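Gene expression was measured with 10x Genomics 5′ v2 libraries, 1 per group. The deposited tables held whole-number UMI counts for each barcode; the submitters' processing notes name Cell Ranger 7.0.0 and mm10, and give R 4.4.2 and Seurat with no step attached. Positions are GENCODE mouse release 21 (GRCm38). Barcodes with fewer than 500 genes or 1000 UMIs, or 10% or more mitochondrial UMIs, were dropped. Counts were summed over CD8 T cells and log2 ratios had 0.5 added. Shares used cells thinned to 1400 UMIs, which left out 125 parous and 14 virgin cells.

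For states, virgin counts were thinned to the parous median depth, 299 cycle and histone genes and 691 genes correlated over 0.15 with the summed members were left out, and Leiden clustering (scanpy 1.11.5, leidenalg 0.10.2, 2000 genes, 30 components, 15 neighbours, resolution 0.8) was used without integration. A cluster was named with at least 3 fixed markers 2-fold up in at least 10% of its cells. Scrublet marked 2 parous and 11 virgin cells, too few to trust, so none was removed.

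Full values were given for members with at least 30 UMIs in a library that were among the 5 smallest or 3 largest ratios of a subgroup and for 12 fixed genes, and for other lists for up to 3 genes at each end. The ratios were tested on simulated counts. The thinning was checked on a part of the kept cells of these data, for depth and gene sums only. The members and lists were chosen with earlier results of these data known. Computation used pandas 2.3.3, scipy 1.17.1 and numpy 2.4.6 under Python 3.11.15.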

Additional observations from a re-analysis of the deposited data

Results flagged for a closer look

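The summed mitosis members of Ly49-positive cluster 3, like those of cluster 0, moved against the other 6 shared clusters. In cluster 0 this was not seen in the share of cells with at least 3 mitosis UMIs. The mitosis members of cluster 3 summed to 1.82-fold more in the parous than in the virgin library. Those of cluster 4 summed to 8.78-fold less (7.41 to 10.5), and the difference between the clusters was not tested. Barcodes of the parous library that failed the cell limits also held member transcripts. These 1908 barcodes, with a median of 600 UMIs, held 709 mitosis UMIs, or 582.1 CPM (540.1 to 626.6), against 303.4 CPM in the parous CD8 T cells, and 869 replication UMIs, or 713.5 CPM. A Cd3e UMI was found in 915 of them. The 15 virgin barcodes left out held 1 mitosis UMI.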

How the results depend on the processing

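No paired analysis was possible because each group is 1 library. Over 232 recomputed summary values, 185 stayed within the interval or 1.5-fold range of the reported value and 46 moved. In 1 the direction changed: the median log2 ratio of replication members inside cycling cells, -0.61 with at least 2 UMIs of the other members, was 0.0368 with at least 3 UMIs of the other mitosis members, where that of mitosis members was -0.20 (-0.17 and -0.60 with at least 4 UMIs of the other members). Over 462 recomputed member ratios under 11 settings, none of the members past 1.5-fold changed direction. In 25 cases a member no longer reached 1.5-fold lower, mostly Dut, Mcm2 and Ezh2.

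The mean over cells gave 6 replication members lower, medians of -0.40 and -1.18 and summed folds of 1.21 for replication and 1.89 for mitosis. Median-of-ratios scaling gave summed folds of 1.44 and 2.30 and a mitosis median of -1.42. Without the 2% of cells with most UMIs the summed folds were 1.42 and 2.41, the mitosis percentages 29.4% and 41.3%, the standardised mitosis fold 1.49 and the mitosis median inside cycling cells -1.49. Without a cell filter the mitosis fold was 2.33, the parous mitosis percentage 34.6% and the replication median outside -0.0383. That median was -0.0375 without cluster 7 and -0.0356 without barcodes found in both libraries. Without Stmn1 the mitosis fold was 2.64 and the percentages were 27.7% and 39.1%, and without Stmn1, Dut, Pcna and Ezh2 they were 38.2% and 47.5%.

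Stricter cell limits with a thinning draw of their own gave a mitosis fold of 2.94 in the match of cluster 4 (4.94 over all draws) and 1.58 standardised. Thinning to 2500 UMIs gave standardised folds of 1.11 for replication and 1.48 for mitosis, and no thinning a replication fold of 1.46. With at least 1 UMI the mitosis fold was 1.19, that of cluster 4 3.44 and the standardised folds 1.10 for replication and 1.25 for mitosis. With at least 3 UMIs the standardised replication fold was 1.52. With at least 5 the replication folds were 1.87 over all cells, 7.71 in cluster 4 and 2.11 standardised, and the standardised mitosis fold was 3.10. With correlated genes kept in clustering, the standardised folds were 1.10 for replication and 1.09 for mitosis, and the mitosis fold of cluster 4 was 2.94 (1.43 over all draws). With cycle genes used, the standardised folds were 1.13 and 1.16. The expected shares, class of 3 UMIs and settings without Stmn1, cluster 7 or shared barcodes were chosen after seeing the data. Depth limits the rarest members: Plk1, Bub1, Bub1b, Ccnb1 and Aurka had at most 35 parous UMIs.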
